A study of Mus musculus with 9 samples.

Results

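The interferon receptors and the factors that carry their signal were followed as 9 genes in normal-appearing mucosa of the colon, taken from mice aged 15 wk. They comprised 4 receptor chains (Ifngr1, Ifngr2, Ifnar1 and Ifnlr1), 1 STAT (Stat2), 3 interferon regulatory factors (Irf1, Irf7 and Irf9) and 1 feedback inhibitor (Socs1). The genes were chosen by name, all 9 were found among the 54146 genes of the RNA-seq table, and all 9 passed the filter on low values that left 14410 genes for the test. Every mouse was C57BL/6J and carried ApcMin/+, a germline heterozygous Apc mutation that gives rise to intestinal adenomas. The 5 ApcMin/+ mice (2 female, 3 male) were compared with 4 ApcMin/+; p16cis/cis mice (3 female, 1 male). These also carry, in both copies, an inserted cis-element that draws DNA methylation to the p16 promoter, so that the comparison asks what p16 epimutation adds to the Apc mutation. Each library was 1 mouse, and its RNA came from colonic crypts, which are mostly epithelium.

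Interferons act through paired receptor chains. IFN-γ binds IFNGR1 and IFNGR2, and its signal reaches GAS elements in promoters such as that of Irf1. Type I interferons bind IFNAR1 with IFNAR2, and type III interferons bind IFNLR1 with IL10RB, a receptor whose use is largely limited to epithelia. Both lead to ISGF3, a complex that holds STAT2 and IRF9 and binds the ISRE of antiviral genes. IRF7 amplifies the production of type I interferon, and SOCS1 blocks the receptor-associated Janus kinases.

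All 9 genes are protein-coding. In the GENCODE annotation of GRCm38 the IFN-γ receptor genes lie at chr10:19591949-19610229 (Ifngr1) and chr16:91547072-91565623 (Ifngr2). Ifnar1 lies near the latter at chr16:91485238-91507441 and Ifnlr1 at chr4:135686287-135708181. The signaling genes lie at chr10:128270559-128292849 (Stat2), chr14:55603571-55610030 (Irf9), chr11:53770014-53778374 (Irf1) and chr7:141262706-141266481 (Irf7), and Socs1 at chr16:10782240-10785536. Irf7 and Socs1 are transcribed from the minus strand and the other 7 from the plus strand.

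The promoter sequences of RefSeq (GRCm38.p6) were searched on both strands in the 250 bases before each start for the ISRE core, GAAA followed by GAAA after 2 free bases, and for the GAS palindrome, TTCNNNGAA. Of 32851 mouse promoters, 2.98% held the ISRE core and 7.02% held the GAS palindrome. All 9 genes had an entry, with 2 starts each for Irf1 and Irf9, and 3 of the genes held a match. For Irf1 the match was before 1 of its 2 starts. The stretches below are shown because they place the motifs of these pathways before the 3 genes; capitals mark the matched letters and the sequence reads 5′ to 3′ on the strand of the gene.

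Stat2, ISRE core on the opposite strand, plus strand, chr10:128270261-128270300: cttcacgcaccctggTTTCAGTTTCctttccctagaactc
Irf1, GAS palindrome, plus strand, chr11:53769909-53769947: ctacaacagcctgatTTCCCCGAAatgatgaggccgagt
Socs1, 2 overlapping ISRE cores, minus strand, chr16:10785589-10785634: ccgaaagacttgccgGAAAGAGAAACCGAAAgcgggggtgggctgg

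Counted back from the start, the match of Stat2 covered bases -222 to -213 and that of Irf1 bases -90 to -82. The 2 matches of Socs1 covered bases -83 to -74 and -77 to -68. The windows of Ifngr1, Ifngr2, Ifnar1, Ifnlr1, Irf7 and Irf9 held neither set of letters. A match is a description of the reference sequence and not a measured binding site.

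Values are normalized counts, the reads on a gene divided by a size factor of the mouse. The libraries held 13523500 to 17885918 reads on genes. Cdkn2a, which encodes p16, had 0 reads in each of the 9 libraries, so its change could not be seen at this depth and the genotypes rest on the labels. Mitochondrial genes took 12.0% ± 2.87 of the reads in the ApcMin/+ group (SD, n = 5) and 24.2% ± 4.41 in the other (SD, n = 4), with no overlap (p = 0.00794 by a two-sided exact permutation test). This share and the genotype cannot be told apart. ApcMin/+ mouse 4 stood apart from the other mice, with a sum of 103 normalized counts over the markers of leukocytes, T cells and NK cells against at least 399 in every other mouse. In bulk samples fewer cells of a type and less RNA per cell cannot be told apart. Of all genes tested, 8.14% were called higher and 8.75% lower in ApcMin/+; p16cis/cis mice at an adjusted p under 0.05 (limma, Benjamini-Hochberg), and 1.83% were higher with a fold change over 2.

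Of the 9 genes, 0 were called in either direction by limma, by edgeR or with the fold rule added. At an unadjusted p under 0.05, 3 of the 9 were higher by limma (Stat2, Irf7 and Socs1) and 3 by edgeR. DESeq2 called 1 of the 9, Stat2 (log2 fold change 0.77, adjusted p = 0.0410), and 5.10% of its 29936 genes were called higher. The log2 fold change lay above 0 for 6 of the 9 genes, with a median of 0.22 against a median of -0.0041 over all genes tested. The 4 receptor chains had small differences, and the larger ones were in Stat2, Irf7, Irf9 and Socs1. Those 4 also varied widely among mice of 1 genotype.

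**Figure D1:**
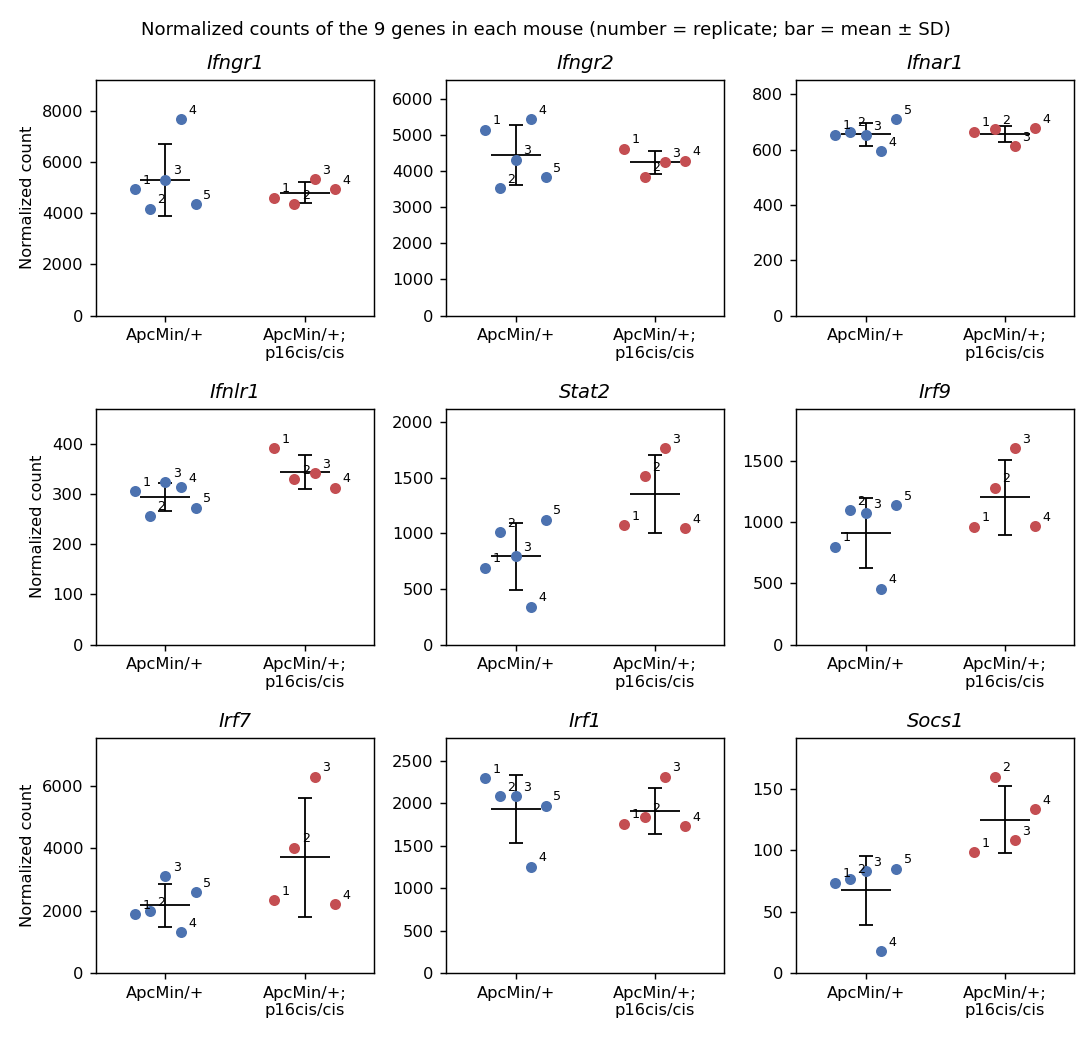
Normalized count (linear axis from 0) of each gene in each mouse, by genotype, with the replicate number beside each point and a bar for the mean ± SD. Replicate 4 of the ApcMin/+ mice is the lowest point for Stat2, Irf9, Irf7, Irf1 and Socs1, and only for Socs1 do the 2 genotypes not overlap.

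The receptor chains differed little between the genotypes. Ifngr1, the chain that binds IFN-γ, had 4931, 4168, 5306, 7675 and 4342 normalized counts in ApcMin/+ mice 1 to 5 and 4605, 4358, 5318 and 4939 in ApcMin/+; p16cis/cis mice 1 to 4. Ifngr2, the signaling partner chain, had 5134, 3519, 4308, 5434 and 3827 against 4612, 3835, 4236 and 4281. In both genes every ApcMin/+; p16cis/cis mouse fell inside the range of the ApcMin/+ mice, and ApcMin/+ mouse 4 had the highest value of all 9. The log2 fold changes were -0.10 ± 0.16 (SE; adjusted p = 0.693, limma) for Ifngr1 and -0.05 ± 0.14 (SE; adjusted p = 0.829, limma) for Ifngr2. The 95% intervals ran from a fold of 0.727 to 1.19 for Ifngr1 and from 0.787 to 1.18 for Ifngr2, so that a change of that size in either direction remains possible.

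Ifnar1, a chain of the type I receptor, had 654, 665, 652, 594 and 711 normalized counts in ApcMin/+ mice and 664, 675, 613 and 677 in ApcMin/+; p16cis/cis mice. The log2 fold change of Ifnar1 was 0.01 ± 0.10 (SE; adjusted p = 0.972, limma), with a 95% interval of the fold from 0.870 to 1.16. It was the steadiest of the 9 genes, with an SD of 0.09 on the log2 scale in ApcMin/+ mice against a median of 0.25 over all genes tested. Ifnlr1, the chain specific to type III interferon, had 307, 258, 324, 314 and 274 normalized counts in ApcMin/+ mice and 393, 330, 343 and 313 in ApcMin/+; p16cis/cis mice. For Ifnlr1, 3 of the 4 ApcMin/+; p16cis/cis mice were above every ApcMin/+ mouse. The log2 fold change of Ifnlr1 was 0.22 ± 0.12 (SE; adjusted p = 0.235, limma), with a 95% interval of the fold from 0.967 to 1.41.

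The partner chains did not pass the test either. Ifnar2 had 54.7 to 76.1 normalized counts in ApcMin/+ mice and 55.8 to 101 in ApcMin/+; p16cis/cis mice (adjusted p = 0.600, limma), and Il10rb had a log2 fold change of -0.08 (adjusted p = 0.718, limma). The ligands were near or at 0. Of 21 interferon genes, 17 were listed at 0 in all 9 mice and 0 passed the filter. Ifng, the sole type II interferon, reached at most 6.38 normalized counts, and it was at 0 in ApcMin/+ mouse 4 and in ApcMin/+; p16cis/cis mice 1 and 4. Type I and type III ligands were thus below what these libraries could compare. Among the kinases bound to the receptors, 0 of 4 were called. Jak1, which serves all 3 receptor types, had 2058 to 2590 normalized counts in ApcMin/+ mice and 1665 to 1946 in ApcMin/+; p16cis/cis mice, without overlap (log2 fold change -0.28, adjusted p = 0.0748, limma), a pattern that 8.95% of all genes tested showed in that direction. Jak3, the kinase of the common gamma chain receptors, was higher without overlap, with 267 to 356 normalized counts in ApcMin/+ mice and 376 to 420 in ApcMin/+; p16cis/cis mice (log2 fold change 0.25, adjusted p = 0.176, limma). In that direction 7.24% of all genes tested did not overlap. Tyk2 (adjusted p = 0.377, limma) and Jak2 (adjusted p = 0.320, limma) overlapped between the genotypes.

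Stat2 and Irf9, the ISGF3 members followed here, varied far more than the receptors. Stat2 had 690, 1011, 795, 338 and 1123 normalized counts in ApcMin/+ mice and 1073, 1511, 1767 and 1048 in ApcMin/+; p16cis/cis mice. The lowest ApcMin/+; p16cis/cis mouse stood above 4 of the 5 ApcMin/+ mice, and 2 of the 4 stood above all of them. The log2 fold change was 0.85 ± 0.30 (SE; adjusted p = 0.0731, limma), and the 95% interval of the fold ran from 1.14 to 2.83. Without ApcMin/+ mouse 4 it was 0.57 and passed the threshold (adjusted p = 0.0496, limma). Without ApcMin/+ mouse 5 it was 1.00 (adjusted p = 0.0472, limma).

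Irf9, which brings ISGF3 to DNA, had 800, 1099, 1073, 456 and 1137 normalized counts in ApcMin/+ mice and 962, 1284, 1608 and 967 in ApcMin/+; p16cis/cis mice. Of the latter, 2 lay inside the range of the ApcMin/+ mice and 2 above it. For Irf9 the log2 fold change was 0.44 ± 0.26 (SE; adjusted p = 0.258, limma), and it was 0.21 without ApcMin/+ mouse 4 and 0.29 without ApcMin/+; p16cis/cis mouse 3. ApcMin/+ mouse 4 was lowest and ApcMin/+; p16cis/cis mouse 3 highest for both Stat2 and Irf9.

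Irf7 had 1889, 1998, 3110, 1319 and 2600 normalized counts in ApcMin/+ mice and 2349, 4028, 6289 and 2206 in ApcMin/+; p16cis/cis mice. The latter split into 2 mice inside the ApcMin/+ range and 2 above it. The difference for Irf7 on the log2 scale was 0.69 ± 0.31 (SE; adjusted p = 0.141, limma), and it was 0.39 without ApcMin/+; p16cis/cis mouse 3. Irf1, a target of IFN-γ and an activator of many IFN-γ genes, had 2293, 2085, 2083, 1255 and 1974 normalized counts against 1762, 1834, 2311 and 1731. Its groups overlapped except for ApcMin/+; p16cis/cis mouse 3, just above the highest ApcMin/+ mouse, with a log2 fold change of -0.0018 ± 0.17 (SE; adjusted p = 0.995, limma) and a 95% interval of the fold from 0.778 to 1.28.

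Socs1 had 73.6, 77.0, 82.9, 17.8 and 85.1 normalized counts in ApcMin/+ mice and 98.5, 160, 108 and 133 in ApcMin/+; p16cis/cis mice. It was the sole member whose groups did not overlap, a pattern that 7.24% of all genes tested showed in that direction. Its log2 fold change was 1.04 ± 0.41 (SE; adjusted p = 0.0996, limma) and the 95% interval of the fold ran from 1.11 to 3.81. ApcMin/+ mouse 4 lay far below the other mice of its genotype and widened the spread. Without it the log2 fold change was 0.62 and passed the threshold (adjusted p = 0.0374, limma).

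**Figure D2:**
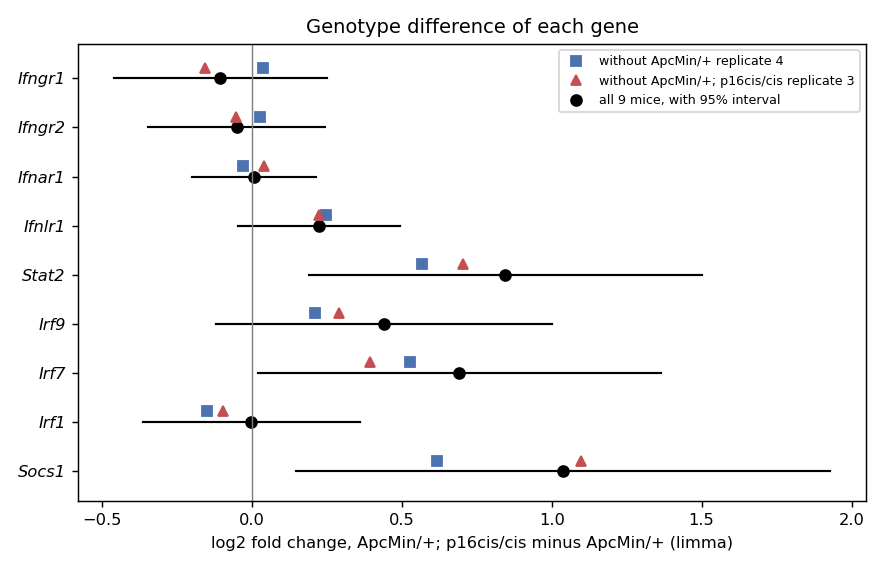
Log2 fold change of each gene, ApcMin/+; p16cis/cis minus ApcMin/+ (limma), with its 95% interval (black), and the value without 1 mouse (blue squares, without ApcMin/+ replicate 4; red triangles, without ApcMin/+; p16cis/cis replicate 3). The intervals of Stat2, Irf7 and Socs1 lie above 0, and leaving out ApcMin/+ replicate 4 takes Socs1 from 1.04 to 0.62 and Stat2 from 0.85 to 0.57.

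Sex was unequal between the genotypes. With sex as a covariate the test called 0 of the 9 genes, and 1 was under 0.05 before adjustment (limma). Among females alone the numbers were 0 and 2. The interaction of sex and genotype passed the threshold for 0 of the 9 genes (limma, smallest adjusted p = 0.842), with 1 male in the ApcMin/+; p16cis/cis group.

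Levels were compared between genes per kilobase of merged exon. In ApcMin/+ mice Ifngr1 had 1856 ± 496 normalized counts per kb (SD, n = 5), Ifngr2 1180 ± 219 and Irf7 578 ± 183. Next came Irf1 with 487 ± 100, Irf9 with 170 ± 53.5 and Stat2 with 134 ± 51.6 per kb. Ifnar1 had 110 ± 7.02, Ifnlr1 70.6 ± 6.75 and Socs1 23.1 ± 9.65 per kb. The ranges of some neighbors in this order overlapped, Irf7 with Irf1, Irf9 with Stat2 and Stat2 with Ifnar1, so their order is not settled. The chains of the IFN-γ receptor thus stood above the type I and type III chains in every ApcMin/+ mouse.

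**Figure D3:**
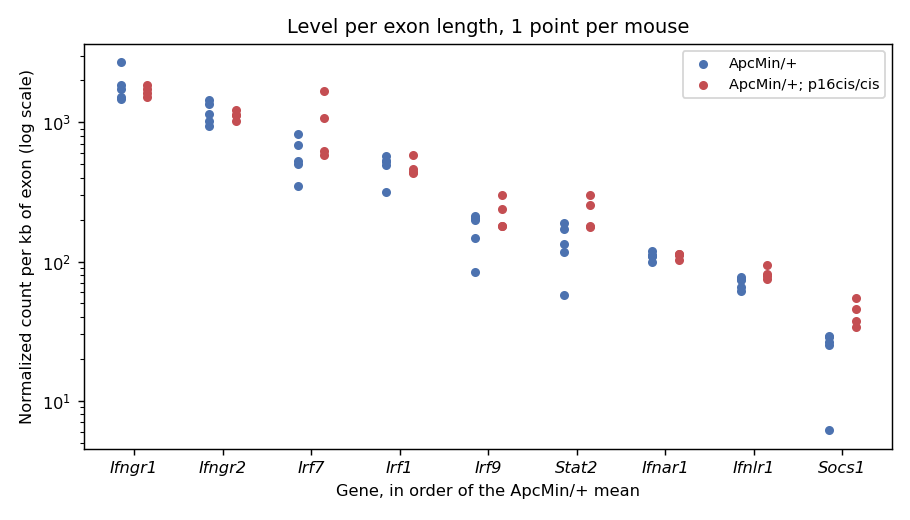
Normalized count per kb of merged exon (log axis) for each gene, 1 point per mouse, in the order of the ApcMin/+ mean. Ifngr1 at 1856 per kb and Ifngr2 at 1180 per kb lead, and Socs1 at 23.1 per kb is lowest.

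Several of the 9 genes varied together across the mice. Among Stat2, Irf9, Irf7, Irf1 and Socs1, 10 pairs were compared on the log2 scale over the 9 mice. Both genotypes were pooled, so a difference between them enters r, rho and the permutation p. Stat2 and Irf9 had the highest Pearson's r, 0.96 (exact permutation p = 0.000276, Benjamini-Hochberg adjusted 0.00276), with a Spearman's rho of 0.85 (exact permutation p = 0.00607, adjusted 0.0207). Without the 2 mice farthest from the median of Stat2, ApcMin/+ mouse 4 and ApcMin/+; p16cis/cis mouse 3, r was 0.79. Irf7 and Irf9 had an r of 0.88 (exact permutation p = 0.00276, adjusted 0.0138) and a rho of 0.85 (exact permutation p = 0.00607, adjusted 0.0207), and r was 0.77 without the same mice. The pairs of Irf1 rested on those mice: its r with Stat2 was 0.63 over 9 mice (exact permutation p = 0.0884, adjusted 0.110), with a rho of 0.23 (exact permutation p = 0.552, adjusted 0.613), and -0.72 over the other 7.

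Across all genes tested, those most like each member over the 9 mice were found by Pearson's r, as a description over libraries that share depth and tissue make-up. The genes nearest to Stat2 were Zbp1 (r = 0.98), Il18bp and Rad9a. Nearest to Irf9 were Isg15 (r = 0.99), Ifit1 and H2-Q6, and nearest to Irf7 were Oas1a (r = 0.95), Psmb9 and Ifi27l2a. Irf1 was most like Nkg7 (r = 0.94), a gene of cytotoxic lymphocytes, followed by Hacd4 and Mettl3. Socs1 was most like G3bp1 (r = 0.98), Hirip3 and Rexo4. The receptor chains had other neighbors: Cyp2s1 (r = 0.97), Lgals3 and Sh3yl1 for Ifngr1, and Baiap2l1 (r = 0.97), Erbb2 and Nbl1 for Ifngr2. For Ifnar1 they were Nlrc3 (r = 0.98), Zfc3h1 and Asb1, and for Ifnlr1 Pomk (r = 0.92), Alox15 and Kiz. Some of these r lean on ApcMin/+ mouse 4. On the log2 scale it lay -2.14 from the mean over the mice for Socs1, -1.49 for Stat2 and 0.62 for Ifngr1. No other mouse lay as far for these genes, and the neighbors without it were not computed.

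**Figure D4:**
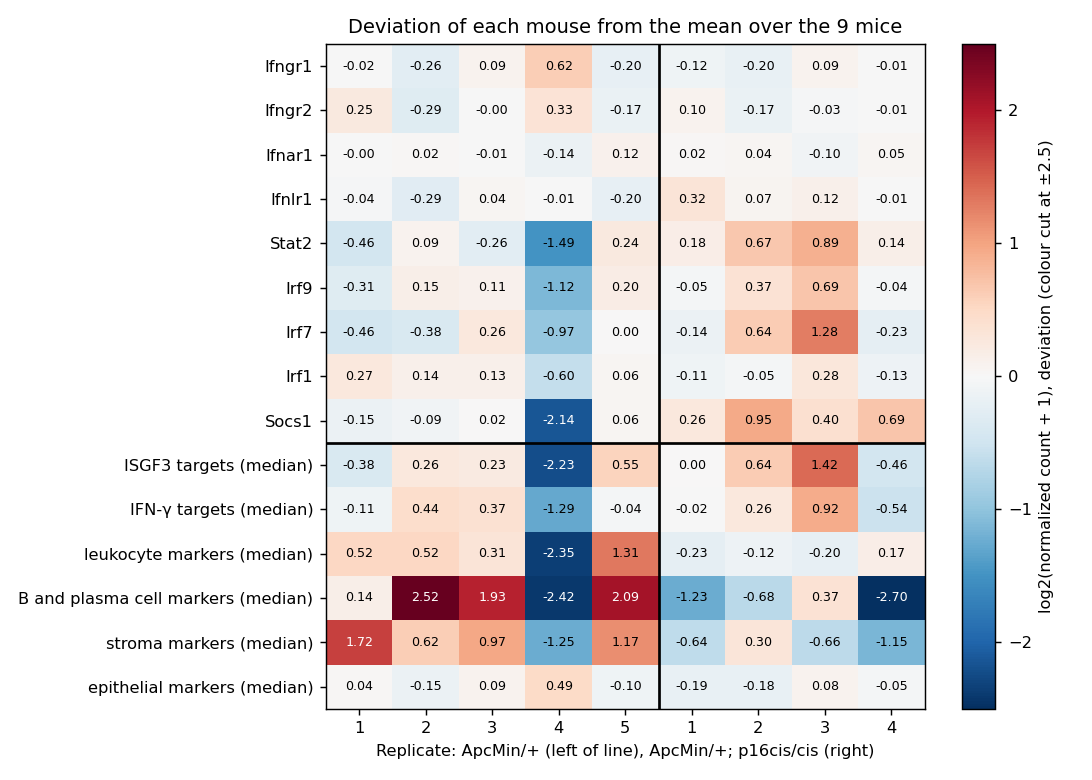
Deviation of each mouse from the mean over the 9 mice, on the log2(normalized count + 1) scale, for the 9 genes (above the line) and as the median over target and marker lists (below). ApcMin/+ replicate 4 reads -2.23 for the ISGF3 targets and -2.35 for the leukocyte markers, and ApcMin/+; p16cis/cis replicate 3 reads 1.42 for the ISGF3 targets.

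The antiviral genes driven by ISGF3 followed the same mice. All 28 of the list passed the filter, 24 had a log2 fold change above 0, 2 were called higher (against 8.14% of all genes tested) and 0 lower, and the median was 0.62. Mx1 had 116, 112, 110, 24.2 and 243 normalized counts in ApcMin/+ mice and 173, 408, 338 and 374 in ApcMin/+; p16cis/cis mice, where it rose (log2 fold change 1.65, adjusted p = 0.0458, limma). Zbp1, a sensor of Z-form nucleic acids, had 334, 532, 461, 140 and 632 against 638, 975, 1751 and 660 without overlap (as 7.24% of all genes tested in that direction), and also rose (log2 fold change 1.30, adjusted p = 0.0485, limma). Neither was called by DESeq2 (adjusted p = 0.0629 for Mx1 and 0.0522 for Zbp1), and of the 9 fits that left out 1 mouse 3 called Mx1 and 2 called Zbp1. DESeq2 called Bst2 alone, a tether of budding viruses (log2 fold change 0.98, adjusted p = 0.0147, against 0.0529 by limma). Oasl2, the most abundant of the list, had 1221, 1931, 1917, 73.7 and 2494 normalized counts against 1749, 3623, 6893 and 1278 (adjusted p = 0.265, limma).

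Summed over the list, the ISGF3 targets reached 9358, 13435, 13377, 4281 and 16194 normalized counts in ApcMin/+ mice and 11311, 18641, 30111 and 9311 in ApcMin/+; p16cis/cis mice. The lowest sum belonged to ApcMin/+ mouse 4 and the highest to ApcMin/+; p16cis/cis mouse 3, and the other 7 mice overlapped. The median log2 fold change of the list was 0.24 without the former and 0.38 without the latter. Without both mice it was -0.16, with 10 of the 28 genes above 0. The median over the 9 members fell less, from 0.22 to 0.06, and Socs1 was then the 1 member called (log2 fold change 0.68, adjusted p = 0.0360, limma). In that fit 11.9% of all genes tested were called higher.

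Among 30 targets of IFN-γ, 20 lay above 0, 4 were called higher (against the same 8.14%) and 0 lower, with a median of 0.36. Batf2, a transcription factor induced by IFN-γ, had 570, 425, 447, 492 and 425 normalized counts in ApcMin/+ mice and 647, 1040, 1264 and 978 in ApcMin/+; p16cis/cis mice (log2 fold change 1.02, adjusted p = 0.00490, limma). Batf2 was higher in 4 of 4 mice than in any ApcMin/+ mouse, was called with each of the 9 mice left out in turn, and was not lowest in ApcMin/+ mouse 4. Psmb8, a subunit of the immunoproteasome, had 337, 409, 446, 149 and 377 against 509, 703, 1104 and 570 (log2 fold change 1.10, adjusted p = 0.0317, limma). Psme1, part of the proteasome activator (log2 fold change 0.48, adjusted p = 0.0228, limma), and Tapbp, a peptide-loading factor of MHC class I (log2 fold change 0.40, adjusted p = 0.0263, limma), also rose without overlap. Over all genes tested 7.24% were higher without overlap. Of the 9 fits that left out 1 mouse, 5 called Psmb8, 8 called Psme1 and 5 called Tapbp. The list's median was 0.08 without ApcMin/+ mouse 4, -0.01 without ApcMin/+; p16cis/cis mouse 3 and -0.29 without both, where 3 genes were called higher and 3 lower.

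**Figure D5:**
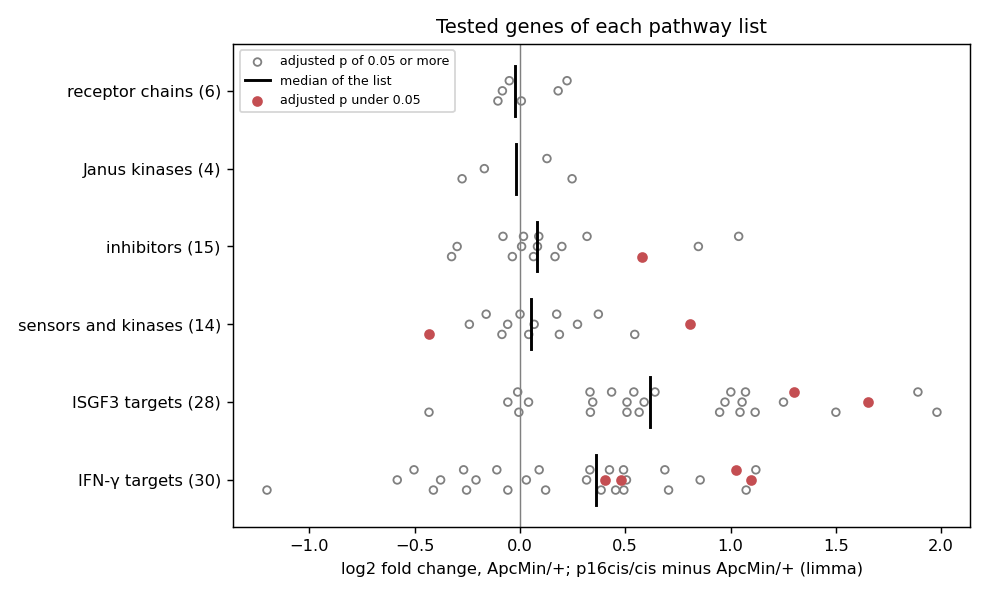
Log2 fold change, ApcMin/+; p16cis/cis minus ApcMin/+ (limma), of each tested gene of 6 pathway lists, with filled points for an adjusted p under 0.05 and a bar for the median of the list. The median of the receptor chains (-0.02) sits near 0, that of the ISGF3 targets is 0.62 and that of the IFN-γ targets 0.36.

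Upstream of IRF7, 14 of 16 sensors and kinases were tested, of which 1 rose and 1 fell. Over all genes tested 8.14% were called higher and 8.75% lower. Those called here were Ikbke and Tbk1, kinases that phosphorylate IRF3 and IRF7. Ikbke had 1116, 983, 1068, 1145 and 1185 normalized counts in ApcMin/+ mice and 1808, 1916, 1576 and 2480 in ApcMin/+; p16cis/cis mice (log2 fold change 0.81, adjusted p = 0.00353, limma). Tbk1 had 754, 875, 855, 695 and 787 against 558, 603, 616 and 569 (log2 fold change -0.43, adjusted p = 0.0162, limma). Neither gene overlapped between the genotypes, a pattern that 7.24% of all genes tested showed upward and 8.95% downward. Ikbke was called with each mouse left out in turn and Tbk1 in 8 of those 9 fits.

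Among other STATs, Stat3 (adjusted p = 0.632, limma) and Stat6 (adjusted p = 0.663, limma) overlapped between the genotypes. Irf8, a factor of myeloid and B cells that is also expressed in gut epithelium, had 1748 to 2233 normalized counts in ApcMin/+ mice and 1871 to 2434 in ApcMin/+; p16cis/cis mice (adjusted p = 0.712, limma). Irf4, named after its values were seen, had at most 3.01 normalized counts in ApcMin/+; p16cis/cis mice and 11.2 to 22.8 in ApcMin/+ mice 1, 2, 3 and 5, and was at 0 in ApcMin/+ mouse 4 (log2 fold change -2.56, adjusted p = 0.0807, limma). It is a factor of plasma cells and activated lymphocytes. Irf4 was called lower without ApcMin/+ mouse 4 (log2 fold change -3.41, adjusted p = 0.00266, limma) and by DESeq2 (adjusted p = 0.0110). Of 15 inhibitors, 11 lay above 0, and Cish, a SOCS family member induced by STAT5, was the 1 called (against 8.14% of all genes tested called higher). It had 277, 210, 217, 230 and 294 normalized counts in ApcMin/+ mice and 364, 394, 322 and 379 in ApcMin/+; p16cis/cis mice (log2 fold change 0.58, adjusted p = 0.0182, limma), and 5 of the 9 fits that left out 1 mouse called it. Usp18, an inhibitor of the type I receptor and an ISGF3 target, ran from 3.81 to 183 and from 50.1 to 332 (adjusted p = 0.577, limma).

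Markers of other cell types were read in the same mice. Between the genotypes the median log2 fold change was -0.27 for leukocytes, -2.08 for B and plasma cells, -0.49 for myeloid cells and -1.44 for stroma. For the epithelial markers it was -0.04 and for the 9 members 0.22. Of 10 markers of leukocytes, T cells and NK cells 9 were tested and 0 were called on all mice, and their sum was 103 in ApcMin/+ mouse 4, 689 to 1679 in the other ApcMin/+ mice and 399 to 617 in ApcMin/+; p16cis/cis mice. The 6 B and plasma cell markers summed to 35.6 in ApcMin/+ mouse 4, to 183 to 927 in the other ApcMin/+ mice and to 36.0 to 188 in ApcMin/+; p16cis/cis mice, and Jchain was called lower. The 10 stromal markers summed to 142 to 753 and 102 to 233, with Col3a1 called lower, and Cdh5 and Kdr were at 0 in all 4 ApcMin/+; p16cis/cis mice. The 10 myeloid markers summed to 137 to 382 and 181 to 227, with Lyz2 called lower and Adgre1 at 0 in all 4 ApcMin/+; p16cis/cis mice. Of 5 markers of plasmacytoid dendritic cells 3 were tested, 2 of these lay above 0 and 0 were called. Their median log2 fold change was 0.30, which was the value of Klk1. The 5 markers summed to 19485 to 33417 normalized counts in ApcMin/+ mice and to 24938.5 to 31626 in ApcMin/+; p16cis/cis mice. Klk1 alone had 18571 to 32777 and 24184 to 30751. ApcMin/+ mouse 4 had the highest sum of these markers but the lowest leukocyte sum. Whether these values come from plasmacytoid dendritic cells was not tested. Siglech, 1 of the 5, was at 0 in 4 of the 9 mice. The 11 epithelial markers summed to 448193 to 774990 and 459872 to 533604, with 0 called. ApcMin/+ mouse 4, the lowest for Stat2, Irf1, Irf7, Irf9 and Socs1, was thus also the lowest for the leukocyte sum and the highest for the epithelial sum. Its B and plasma cell sum of 35.6 was close to the 36.0 of ApcMin/+; p16cis/cis mouse 4. By contrast, ApcMin/+; p16cis/cis mouse 3, the highest for Stat2, Irf1, Irf7 and Irf9, had a leukocyte sum of 533. Without ApcMin/+ mouse 4 more markers were called lower by limma, 4 of the 9 tested leukocyte markers and 4 of 6 B and plasma cell markers. So were 4 of 7 stromal markers and 3 of 8 myeloid markers. Calls also rose over all 14410 genes tested, where 1797 were lower in that fit against 1261 with all mice. The median log2 fold change of the leukocyte markers went from -0.27 to -0.96. Of the 3 tested markers listed for plasmacytoid dendritic cells, whose source was not tested, 1 was then called higher (against 11.7% of all genes tested). The part of these markers in the differences was not tested.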

How the data were processed

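The authors aligned BGISEQ-500 reads with BOWTIE2, computed gene levels with RSEM and compared the genotypes with DESeq2. Versions and the genome build of the RNA-seq are not given in the sources used here. The deposited signal values are gene counts divided by 1 size factor per mouse. Division by the value of 1 read gave whole reads for 100% of positive values (tolerance 0.01 reads). Of 54146 identifiers 54079 matched GENCODE M21 (GRCm38) regardless of version, and 24200 genes were at 0 in every mouse.

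The test was limma 3.58.1 (R 4.3.3, trended variances, genotype alone in the model) on log2 of the normalized count plus 1. It covered the 14410 genes that reached 10 in 4 or more mice, and Benjamini-Hochberg adjustment ran over all of them. Fold changes are on that scale and understate changes of low genes. Alternatives were edgeR 4.0.16 and DESeq2 1.42.0 (both from the whole reads), other scalings, filters, a pseudocount of 0.1, sex and mitochondrial share as covariates, the replicate block and each mouse left out. Leaving out 2 mice together was added after seeing the data. In simulated counts 83.5% of 200 genes changed by 2 on the log2 scale were called, and 4.02% of calls were unchanged genes.

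The 9 members and all gene lists were chosen with earlier results of these data known. Named besides the members are the called genes of each list, up to 4 of its most abundant ones and the partners of the members, and not every such gene is described. Replicate numbers name different mice. The promoter sequences are from RefSeq, not from these mice. Further items of the lists are not reported here.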

Additional observations from a re-analysis of the deposited data

Results flagged for a closer look

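Socs1 in replicate 4 of the ApcMin/+ mice was 17.8 normalized counts, while the other 4 mice of the group had 73.6 to 85.1. Its gap to the nearest mouse was too large a part of the group's range under Dixon's criterion. It was 1 of 38 groups checked, of which chance alone gives about 1.9. The same mouse had the lowest values of Stat2, Irf1, Irf7 and Irf9 and the lowest sum of leukocyte markers.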

How the results depend on the processing

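The members called numbered 0 under limma and also with TMM scaling, nuclear-gene size factors, edgeR (TMM or RLE), other filters, a pseudocount of 0.1, sex or mitochondrial share as a covariate, females only, a fold over 2 and Bonferroni. DESeq2 called 1, leaving out 1 mouse gave 0 to 2, and leaving out ApcMin/+ mouse 4 with ApcMin/+; p16cis/cis mouse 3 gave 1 (chosen after seeing the data). The replicate block called 3 (Irf7 and Stat2, adjusted p = 0.0136 each, and Irf9, adjusted p = 0.0469, limma); ApcMin/+ mouse 5 has no partner there. Mice that share a number are unrelated by the labels and their deviations correlated by 0.02 on average, so the design is not paired. Over all genes tested 2434 were called, 1183 to 3488 with 1 mouse left out, 1437 with sex, 898 in females only, 501 with the fold rule and 27 by Bonferroni. With the replicate block it was 2074 (1095 lower), with DESeq2 3251 of 29936 genes, and without the 2 mice 3637 (1923 lower). With the mitochondrial share as a covariate it was 0, and 0 members had an unadjusted p under 0.05. The share does not overlap between the groups. Stat2, Irf7, Irf9, Socs1 and Ifnlr1 stayed above 0 on the log2 scale under all 22 alternative fits, but their lowest values were 0.43, 0.23, 0.06, 0.35 and 0.16.

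Genes near 0 changed sign. Ifnar1 was -0.0051 with TMM scaling, -0.0123 with sex, -0.0592 in females and -0.084 with mitochondrial share. Irf1 was 0.0005 with nuclear-gene size factors and 0.0123 with the block. Ifngr1 was 0.0695 in females and 0.0863 with mitochondrial share, where Ifngr2 was 0.0211, and Ifngr2 was 0.0261 without the 2 mice. With 1 mouse left out the log2 fold change ran from -0.181 to 0.0387 for Ifngr1, -0.130 to 0.0266 for Ifngr2, -0.0285 to 0.0393 for Ifnar1 and -0.151 to 0.0663 for Irf1. The cause was not tested.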
